A study of Homo sapiens with 14 samples.

Results

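The unfolded protein response and the folding machinery of the endoplasmic reticulum (ER) were followed through 32 named genes, taken by symbol (GENCODE release 29) from a table of 58037 gene IDs. The rule that lists them uses no measured value, though the list was drawn up with earlier results of these data known, and each of the 32 symbols matched 1 protein-coding gene ID. It holds sensors and transcription factors (XBP1, ATF6, ERN1), the Hsp70 system of the ER (HSPA5, HYOU1, DNAJB9, DNAJB11, DNAJC3, SDF2L1), other chaperones and lectins (HSP90B1, CALR, CANX, MANF, CRELD1, CRELD2), disulfide isomerases (P4HB, PDIA3, PDIA4, PDIA6), ER-associated degradation (HERPUD1, SEL1L, SYVN1, EDEM1, DERL1, DERL2, DERL3, OS9), translocon and vesicle coat (SEC61A1, SEC61B, SSR1, SEC24D) and the ER membrane protein WFS1.

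The cells were OCI-AML2, a human acute myeloid leukaemia line, cultured in alpha-MEM with serum. In total RNA there were 4 libraries of RUNX1 R174*/wt cells given 100 nM HHT for 8 h, 4 control libraries of the same mutant cells (DMSO per the treatment protocol) and 2 libraries of the RUNX1 wt/wt parent line with the treatment label None. RiboLace, which pulls down RNA on translating ribosomes, gave 2 libraries of R174*/wt cells and 2 of wt/wt cells, all untreated by label. RUNX1 encodes a transcription factor of blood cells, R174* places a stop codon on 1 of its alleles, and HHT is homoharringtonine, a drug that blocks translation elongation. Per their descriptions, replicates 1 and 2 of the mutant HHT and control libraries were line F3, replicates 3 and 4 were line G7, and both mutant RiboLace libraries were F3. The treatment label gives 8 h for the mutant controls where the description gives 0 h, so a solvent effect and genotype cannot be told apart between mutant controls and wild type. If 0 h is right, HHT and 8 h of time cannot be told apart either between HHT and control libraries. Each difference between HHT and control below is given with that limit. No wild-type library was given HHT, and each genotype is represented by the parent line or by these 2 lines. The stop codon itself cannot be seen in counts per gene, and nothing in the labels says that replicates came from separate cultures, so p-values may measure technical spread alone.

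Proteins that enter the ER are folded by HSPA5 (BiP) and its J-domain partners, by the Hsp90 family member HSP90B1, by the lectins CALR and CANX and by disulfide isomerases. When unfolded protein accumulates, the kinase and nuclease ERN1 (IRE1) splices XBP1 mRNA, ATF6 is cut in the Golgi to release a transcription factor, and EIF2AK3 (PERK) phosphorylates eIF2alpha, which lowers general translation and favours that of ATF4. XBP1 and cleaved ATF6 raise transcription of chaperone and degradation genes, and misfolded proteins leave the ER through the SEL1L and SYVN1 ubiquitin ligase complex. Plasma cells and other secretory cells depend on this response. Counts per gene do not separate spliced from unspliced XBP1, nor cleaved from full-length ATF6 protein.

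Total RNA libraries held 19250789 to 21925693 counts and RiboLace libraries 465052 to 2034796. Markers of myeloid leukaemia cells summed to 1035 to 1378 CPM (counts scaled to library size) in total RNA, with CD34, KIT and ANPEP at or near 0, and all 5 erythroid markers had no count. The 8 lymphoid and plasma cell markers summed to 0.864 to 2.43 CPM in total RNA and to 9.11 to 27.5 CPM in RiboLace libraries, where most of it was JCHAIN, the immunoglobulin joining chain, while SDC1 had no count. CPM were scaled by trimmed mean of M-values (TMM) within each assay, and differences are log2 fold changes ± standard error (SE), called at an adjusted p under 0.05 in edgeR.

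Of the 32 genes, 31 passed the filter on low counts in total RNA. WFS1, mutated in Wolfram syndrome, had 1 read over all libraries and was not tested, and DERL3 also dropped out of the RiboLace comparison of genotypes. Per kilobase of exon, CALR was the most abundant of the set in each of the 5 groups, at 763 ± 56.7 CPM per kb in HHT (SD, n = 4), 1721 ± 237 in mutant control (n = 4) and 1099 ± 16.1 in wild-type total RNA (n = 2). P4HB, the founding protein disulfide isomerase, came second at 164 ± 8.92, 420.1 ± 43.1 and 344 ± 1.36 CPM per kb in the same groups. HSP90B1 was next at 161 ± 6.79, 386 ± 38.0 and 342 ± 6.98 CPM per kb and the libraries of the 2 genes overlapped in each of these groups. The sensor ERN1 was low, with 2.77 ± 0.148 CPM per kb in HHT, 3.15 ± 0.634 in mutant control and 2.47 ± 0.202 in wild type. DERL3 shares 2923 of its 3796 exon bases with SMARCB1 on the opposite strand and, because the use of strand in counting is not given in the sources used here, its values are uncertain. The same limit holds, over fewer bases, for DERL2 with MIS12 (301), DNAJB11 with TBCCD1 (381), DERL1 with TBC1D31 (396), DNAJB9 with THAP5 (183), SEC61A1 with RUVBL1 (344) and SYVN1 with MRPL49 (356). SYVN1 also shares 398 exon bases with FAU on its own strand, which a strand setting would not separate. MIS12 had 8092 counts in total RNA and TBCCD1 5277, which bears on DERL2 and DNAJB11 below.

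Together the 32 genes took 0.702% to 0.819% of the counts of HHT libraries, 1.28% to 1.61% of those of mutant controls and 1.16% in both wild-type libraries. Their summed level was 6976 ± 328 CPM with HHT and 15265 ± 1394 CPM in mutant controls (SD, n = 4 each), and 12262 and 12310 CPM in the wild-type libraries. The HHT libraries did not overlap either other group, and line G7 was above line F3 in both HHT and control libraries. Most of the sum came from the chaperone and lectin group and from the isomerases, as the stacked plot of summed CPM shows. In bulk libraries fewer cells of a kind and less RNA per cell cannot be told apart, and CPM give a share of each library, not an amount per cell.

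**Figure D1:**
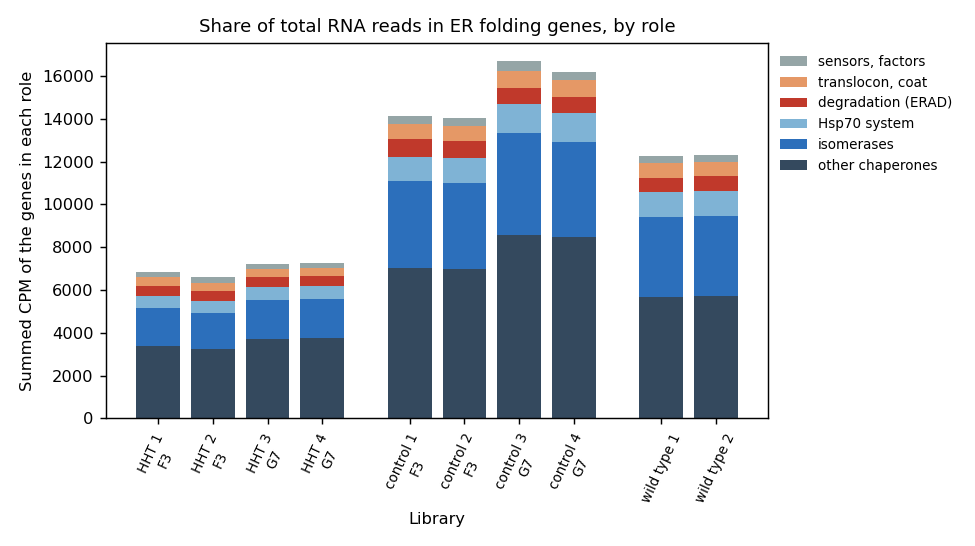
Summed CPM (linear axis, total RNA) of the ER folding genes in each library, stacked by role, for HHT libraries, mutant controls and wild type. The HHT libraries sum to 6589 to 7283 CPM, the mutant controls to 14014 to 16715 CPM and the wild-type libraries to 12262 and 12310 CPM.

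Promoter sequence is shown for 4 members that fell under HHT and for SDF2L1, whose response differed between the lines. Cleaved ATF6 and XBP1 are known to act through the ER stress response element (ERSE) and its shorter form ERSE-II. All 5 windows shown hold one of these elements. PDIA4 and SEL1L, which fell most under HHT, have windows with neither and are not shown. RefSeq windows (GRCh38.p14) from 250 bases before to 50 after the annotated start were at hand for 28 of the 32 genes, without PDIA3, DERL1, DERL3 and SEC24D. An exact search on both strands for ERSE (CCAAT and CCACG with 9 free bases between them) found it in windows of 7 of the 28 genes, CALR, CANX, CRELD2, HSP90B1, HSPA5, PDIA6 and XBP1, or 25.0%, against 25 of 27305 genes of the table, or 0.0916%. ERSE-II (ATTGG and CCACG with 1 free base between them) lay in windows of 3 further members, HERPUD1, HYOU1 and SDF2L1, and in windows of 19 genes of the table, or 0.0696%. Neither motif contains the other, and both contain CCACG. The 5 windows below run 5′ to 3′ on the strand of the gene, with the fixed bases of ERSE or ERSE-II in capitals. They are those of the main Hsp70 (HSPA5, chr9:125241294-125241593, minus strand), the Hsp90 (HSP90B1, chr12:103930160-103930459, plus strand), the transcription factor XBP1 (chr22:28800520-28800819, minus strand), the degradation scaffold HERPUD1 (chr16:56931892-56932191, plus strand) and SDF2L1, a partner of DNAJB11 (chr22:21642052-21642351, plus strand).
HSPA5: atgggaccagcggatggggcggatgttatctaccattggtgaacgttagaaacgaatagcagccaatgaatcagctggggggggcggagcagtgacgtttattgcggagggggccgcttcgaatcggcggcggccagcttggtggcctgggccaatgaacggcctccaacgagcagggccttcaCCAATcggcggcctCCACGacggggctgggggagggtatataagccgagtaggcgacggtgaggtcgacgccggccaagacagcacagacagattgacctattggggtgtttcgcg
HSP90B1: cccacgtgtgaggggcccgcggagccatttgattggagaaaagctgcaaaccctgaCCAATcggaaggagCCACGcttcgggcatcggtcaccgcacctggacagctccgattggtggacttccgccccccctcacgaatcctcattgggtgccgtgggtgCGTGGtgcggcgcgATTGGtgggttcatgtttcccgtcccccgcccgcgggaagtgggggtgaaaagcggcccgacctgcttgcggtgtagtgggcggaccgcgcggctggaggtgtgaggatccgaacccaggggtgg
XBP1: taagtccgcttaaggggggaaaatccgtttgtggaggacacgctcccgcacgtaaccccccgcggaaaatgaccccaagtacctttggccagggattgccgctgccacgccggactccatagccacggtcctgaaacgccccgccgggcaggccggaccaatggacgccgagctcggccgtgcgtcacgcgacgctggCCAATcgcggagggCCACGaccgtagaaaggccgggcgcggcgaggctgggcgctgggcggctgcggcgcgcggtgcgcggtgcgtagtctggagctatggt
HERPUD1: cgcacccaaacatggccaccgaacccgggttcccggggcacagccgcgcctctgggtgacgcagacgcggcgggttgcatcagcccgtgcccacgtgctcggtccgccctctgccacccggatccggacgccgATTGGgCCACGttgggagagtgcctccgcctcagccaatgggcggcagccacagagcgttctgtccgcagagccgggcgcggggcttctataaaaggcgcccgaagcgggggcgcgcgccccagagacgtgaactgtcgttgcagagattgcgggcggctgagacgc
SDF2L1: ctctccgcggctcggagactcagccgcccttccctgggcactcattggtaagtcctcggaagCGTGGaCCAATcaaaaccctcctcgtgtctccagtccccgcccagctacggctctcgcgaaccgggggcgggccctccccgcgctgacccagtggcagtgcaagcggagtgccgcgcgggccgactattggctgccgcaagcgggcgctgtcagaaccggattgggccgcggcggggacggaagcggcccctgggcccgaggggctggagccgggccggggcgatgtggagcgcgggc

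In the HSPA5 window the element lies at positions -66 to -48 from the start, and in that of XBP1 at -52 to -34. HSP90B1 holds a pair, at -194 to -176 and, on the other strand, at -89 to -71. ERSE-II lies at -117 to -107 in HERPUD1 and at -188 to -178 in SDF2L1. The sites of the remaining 5 genes, written in the same way, show which bases the members share.
CALR: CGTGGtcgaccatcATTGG
CANX: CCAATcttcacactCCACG
CRELD2: CGTGGcgaactcggATTGG
PDIA6: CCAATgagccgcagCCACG
HYOU1: CGTGGtCCAAT
HYOU1 carries its site at -185 to -175 and again at -79 to -69. Single copies of CCAAT and CCACG are common, in windows of 39.7% and 42.1% of the 27305 genes and of 89.3% and 78.6% of the 28 members. A match is a run of letters and not a bound site, and no member is said to lack regulation because its window has none.

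Most of the ER folding genes were lower with HHT than in control. Among 31 tested, 25 fell and 3 rose, against 38.4% of 14435 genes that fell, 39.5% that rose and 77.9% called in either direction. The median log2 fold change was -0.90 for the members and -0.00 for all genes tested. By role, 4 of 4 isomerases fell, 6 of 6 other chaperones and lectins, 4 of 6 in the Hsp70 system, 7 of 8 in ER-associated degradation and 3 of 4 in translocon and coat, whereas of the 3 sensors and factors 1 fell and 1 rose. PDIA4, SEL1L and HERPUD1 fell most, and DERL2, DNAJB11 and ATF6 were the 3 that rose.

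PDIA4 (ERp72), a disulfide isomerase of the ER lumen, stood at 108, 101, 94.9 and 97.1 CPM with HHT and at 601, 576, 655 and 584 CPM in control, replicates 1 to 4. The highest HHT library was far below the lowest control library, and the wild-type libraries, at 564 and 570 CPM, lay near the controls. The log2 fold change was -2.58 ± 0.07 (adjusted p = 4.7e-13), the largest of the set. P4HB had 869, 808, 918 and 894 CPM with HHT and 2076, 2039, 2540.3 and 2256 CPM in control, a change of -1.34 ± 0.06 (adjusted p = 7.3e-11), again with no overlap. PDIA6 changed by -1.13 ± 0.06 and PDIA3 (ERp57), which works with CALR and CANX, by -0.64 ± 0.06.

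HSPA5, the main Hsp70 of the ER, which also binds the stress sensors, had 261, 251, 266 and 253 CPM with HHT and 685, 692, 789.9 and 833 CPM in control. The groups were apart by more than their spread, at -1.53 ± 0.06 (adjusted p = 2.3e-11). HYOU1, its nucleotide exchange factor, changed by -1.03 ± 0.06, and the J-domain proteins DNAJB9 and DNAJC3 by -1.01 ± 0.11 and -0.45 ± 0.07. DNAJB11, another J-domain partner of HSPA5, went the other way. It had 90.2, 99.3, 77.2 and 89.6 CPM with HHT and 52.8, 66.8, 71.0 and 71.9 CPM in control, with every HHT library above the highest control, and a change of 0.45 ± 0.10 (adjusted p = 0.0006).

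HSP90B1 (GRP94) had 725, 739, 772 and 795 CPM with HHT and 1662, 1696, 1847 and 2054 CPM in control, without overlap, a change of -1.25 ± 0.06 (adjusted p = 9e-11). CALR and CANX, the lectin chaperones of new glycoproteins, fell by 1.16 ± 0.06 and 0.90 ± 0.06 on the log2 scale. CRELD1, a membrane protein with EGF-like domains, and its secreted relative CRELD2 changed by -0.55 ± 0.09 and -0.48 ± 0.10. MANF, a secreted cofactor of HSPA5, changed by -0.73 ± 0.10 and differed between the lines.

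Among the degradation genes, SEL1L, the adaptor of the SYVN1 ligase, had 20.9, 20.8, 24.2 and 22.6 CPM with HHT and 106, 92.7, 83.4 and 84.6 CPM in control. All 4 HHT libraries were low, and the change was -2.03 ± 0.09 (adjusted p = 5.2e-11). HERPUD1, a membrane scaffold of the same complex, had 23.0, 23.0, 20.7 and 19.6 CPM with HHT and 87.9, 82.3, 58.5 and 66.4 CPM in control, a change of -1.75 ± 0.08 (adjusted p = 6e-11). SYVN1 itself changed less, by -0.48 ± 0.06. EDEM1, which trims mannose from misfolded glycoproteins, changed by -0.98 ± 0.08, the lectin OS9 by -0.45 ± 0.06, and DERL3 by -0.90 ± 0.13 with the strand limit above. The derlins, membrane proteins of the exit channel, split: DERL1, at 28.8, 27.0, 24.1 and 24.0 CPM with HHT and 62.4, 64.4, 67.7 and 65.9 CPM in control, changed by -1.32 ± 0.07. DERL2, which overlaps MIS12, had 37.8, 37.1, 32.6 and 37.1 CPM with HHT and 19.2, 18.8, 17.2 and 18.3 CPM in control. Every HHT library of DERL2 was above every control, and its rise of 0.98 ± 0.07 (adjusted p = 1.3e-08) was the largest of the set.

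XBP1 had 106, 115, 101 and 99.0 CPM with HHT and 249, 251, 343 and 277 CPM in control, a change of -1.40 ± 0.09 (adjusted p = 3.6e-09) with no overlap. ATF6 had 100.1, 102, 96.9 and 104 CPM with HHT and 89.9, 85.1, 94.2 and 97.0 CPM in control. Its lowest HHT library was under its highest control, and the call, at 0.15 ± 0.06 (adjusted p = 0.034), was lost in 10 of 15 alternatives, among them relative log expression (RLE) size factors and DESeq2, with adjusted p up to 0.20. ERN1 had 29.4, 28.2, 31.4 and 31.5 CPM with HHT and 43.2, 35.2, 31.9 and 26.8 CPM in control, overlapping groups at -0.16 ± 0.11 (adjusted p = 0.2). Of the sensors and factors, XBP1 alone was called lower with the lines pooled. In the translocon, SSR1 of the TRAP complex changed by -1.14 ± 0.06 and the channel subunit SEC61A1 by -0.94 ± 0.06, whereas the small channel subunit SEC61B was at -0.01 ± 0.08 (adjusted p = 0.88), and the COPII cargo adaptor SEC24D changed by -0.48 ± 0.08.

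**Figure D2:**
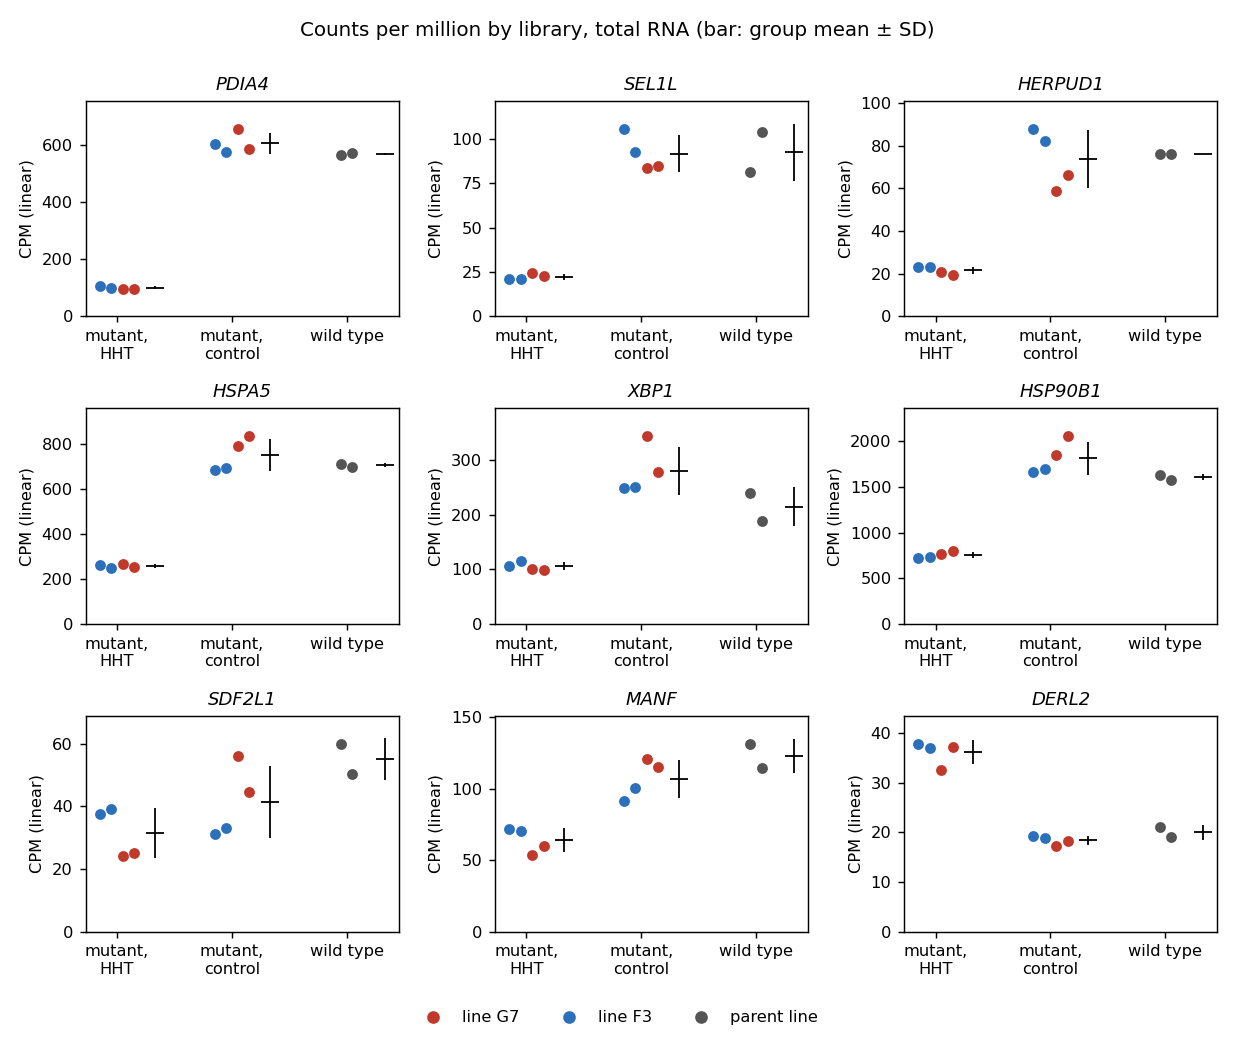
CPM of 9 genes in each total RNA library (linear axes from 0), with HHT libraries left of mutant controls and wild type, points coloured by line and a bar for the group mean ± SD. PDIA4, SEL1L, HERPUD1, HSPA5, XBP1 and HSP90B1 separate HHT from control in both lines, DERL2 separates them upward, and SDF2L1 is lower with HHT in G7 and higher in F3.

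Genes with an ERSE in their window were among those that fell. All 7 were called down, with a median of -1.16 and a range of -1.53 to -0.48. With the 3 ERSE-II genes added, 9 of 10 were called down, at a median of -1.14, the exception being SDF2L1 at -0.38 ± 0.19 (adjusted p = 0.078). The 17 other tested members with a window held 12 that fell and 3 that rose, at a median of -0.55 and a range of -2.58 to 0.98. The largest decrease, that of PDIA4, was in a window with neither motif, and the ranges of the 2 sets overlapped. These are descriptions of small sets and no test was made between them.

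Most members fell in each line. In G7, 26 members fell and 2 rose, against 35% of genes that fell, 36.2% that rose and 71.2% called in either direction. In F3, 26 members fell and 4 rose, against 34.5%, 37.3% and 71.8%. PDIA4 changed by -2.67 ± 0.08 in G7 and by -2.50 ± 0.08 in F3, and SEL1L by -1.82 ± 0.09 in G7 and by -2.25 ± 0.09 in F3. The difference of the 2 responses, G7 minus F3, passed the test for 2 members, both lower in G7, against 2% of genes lower, 1.79% higher and 3.8% in either direction. SDF2L1, which forms a complex with DNAJB11 and HSPA5, had 24.1 and 25.2 CPM with HHT and 56.2 and 44.7 CPM in control in G7, and 37.6 and 39.1 CPM with HHT and 31.3 and 33.1 CPM in control in F3. In G7 the HHT libraries were below control and in F3 above it. The change was -1.01 ± 0.10 in G7 (adjusted p = 2.7e-07) and 0.25 ± 0.10 in F3 (adjusted p = 0.042), a difference of -1.26 ± 0.15 (adjusted p = 0.00037), and the call of the difference was kept in each alternative run. The rise in F3 was lost in 7 of 14 alternatives, which were RLE size factors, DESeq2, protein-coding genes alone and each F3 library left out. MANF had 54.0 and 60.1 CPM with HHT and 121 and 115 CPM in control in G7, and 71.9 and 70.2 CPM with HHT and 91.6 and 100.3 CPM in control in F3. It was lower with HHT in both lines, at -1.03 ± 0.08 in G7 and -0.43 ± 0.08 in F3, with a difference of -0.59 ± 0.12 (adjusted p = 0.0087). That call was lost without control replicate 1 (adjusted p = 0.098) or without HHT replicate 3 (adjusted p = 0.061). ERN1 was at 0.12 ± 0.11 in G7 (adjusted p = 0.33) and -0.44 ± 0.11 in F3 (adjusted p = 0.0018), but its difference of 0.57 ± 0.16 did not pass (adjusted p = 0.055).

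**Figure D3:**
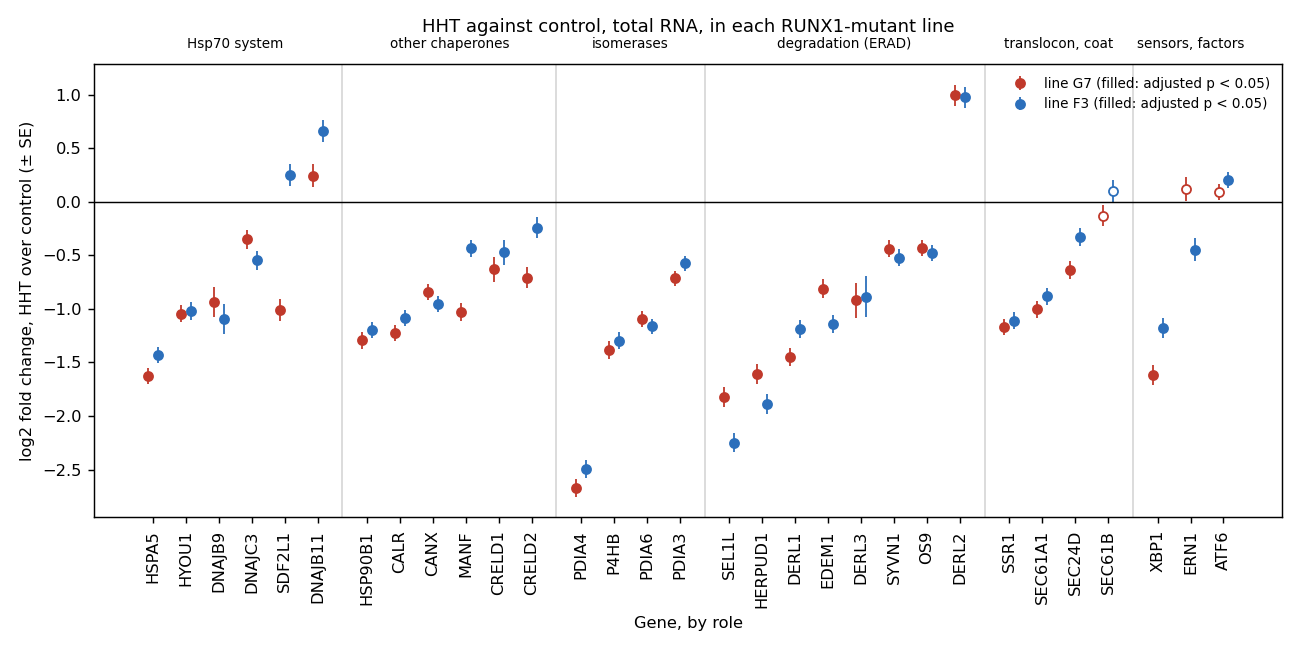
Log2 fold change of HHT over control ± SE for each tested gene, grouped by role, in line G7 and line F3, with filled points for an adjusted p under 0.05. Most points of both lines lie below 0, DERL2 lies near 1 in both lines, and SDF2L1 is at -1.01 in G7 and 0.25 in F3.

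In 8 lists of other genes of the response and of the secretory route, HHT did not give the same picture. Of the 103 tested of 104, 45 fell and 41 rose, with a median of -0.13. Over all 14435 genes tested, 38.4% fell and 39.5% rose, and these shares also stand beside the counts of the single lists. Among the 9 genes of the PERK arm, 6 rose and 3 fell: ATF3, a stress-induced transcription factor, rose by 3.32 ± 0.08 and PPP1R15A, which directs dephosphorylation of eIF2alpha, by 1.66 ± 0.07, while the glutathione-degrading enzyme CHAC1 and the oxidase ERO1A changed by -3.56 ± 0.28 and -1.54 ± 0.06. ATF4 had 1601, 1654, 1421 and 1459.7 CPM with HHT and 1047, 1141, 929 and 961 CPM in control, a rise of 0.60 ± 0.06 (adjusted p = 1.5e-07). DDIT3 (CHOP), which ATF4 is known to induce, had 30.6, 30.5, 28.4 and 31.2 CPM with HHT and 90.6, 92.9, 47.7 and 53.1 CPM in control, a change of -1.17 ± 0.13 (adjusted p = 1.4e-06). The 2 genes thus moved in opposite directions, without overlap of the groups in either. EIF2AK3 had 22.7, 21.2, 14.5 and 14.9 CPM with HHT and 17.2, 14.5, 14.4 and 13.5 CPM in control, at 0.29 ± 0.10 (adjusted p = 0.016). Its groups overlapped, and the HHT libraries of F3 were the high ones. In the line difference, G7 minus F3, DDIT3 and TRIB3, a pseudokinase of the same arm, were called at 0.85 ± 0.12 and 0.91 ± 0.13. DDIT3 fell less in G7, where its control libraries were lower than those of F3, and its HHT levels were alike in both lines. TRIB3 had 489 and 491 CPM with HHT and 264 and 213 CPM in control in G7. In F3 it had 320 and 316 CPM with HHT and 289 and 283 CPM in control.

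N-glycosylation and glycan trimming came closest to the members, with 12 of 16 genes lower and 3 higher. The lectin MLEC and the transferase subunit STT3A changed by -1.45 ± 0.06 and -1.38 ± 0.07, and the glucosyltransferase UGGT2 by 0.74 ± 0.10. Other oxidoreductases held 7 lower and 4 higher of 15, with QSOX1 at -2.17 ± 0.06, PDIA5 at -1.54 ± 0.06, ERO1B at 1.24 ± 0.10 and TMX2 at 1.13 ± 0.07. Translocon, signal peptidase and SRP receptor genes held 6 lower and 3 higher of 14, with SSR2 at -0.87 ± 0.06 and SEC62 at 0.98 ± 0.07. Other ER-associated degradation genes were spread to both sides, 7 lower and 8 higher of 20, with the mannosidase MAN1B1 at -2.09 ± 0.08 and the ubiquitin-conjugating enzyme UBE2J2 at 1.16 ± 0.10. Of 13 tested COPII coat and KDEL receptor genes 5 fell and 7 rose, with KDELR1 at -0.99 ± 0.06 and the GTPase SAR1B at 1.67 ± 0.08. Genes of ATF6 processing and related factors had 4 lower and 5 higher of 10, with the ATF6-cutting protease MBTPS1 at -1.06 ± 0.07 and TRAF2, which binds ERN1, at 1.18 ± 0.07. Hsp70 cofactors of the ER had 1 lower and 5 higher of 6, with SIL1, an exchange factor of HSPA5, at -0.56 ± 0.07 and DNAJB14 at 1.45 ± 0.09.

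Without HHT, few members passed the test between the RUNX1 mutant and wild type with lines pooled: 2 of 31 rose and none fell, against 2.49% of 13949 genes that rose, 2.07% that fell and 4.56% in either direction, and the medians were 0.12 for members and 0.00 for all genes. In 13 members all 4 mutant controls were above both wild-type libraries and in 1 below both. The share of all genes without overlap was not counted, so these counts are not read as a result about the members. The summed member level did not overlap either, at 14014 to 16715 CPM in mutant controls and 12262 and 12310 CPM in wild type. CALR, with means of 4670 CPM in mutant controls and 2981 CPM in wild type, weighs heavily in that sum. SEC24D had 71.9, 72.5, 73.3 and 84.7 CPM in mutant controls and 42.8 and 49.5 CPM in wild type, a rise of 0.70 ± 0.11 (adjusted p = 0.012). CALR had 4154, 4100.1, 5382 and 5046 CPM in mutant controls and 3012 and 2951 CPM in wild type, a rise of 0.64 ± 0.13 (adjusted p = 0.032). In both genes all mutant libraries were above both wild-type libraries. Both calls were lost when either wild-type library was left out, with adjusted p of 0.19 and 0.076 for SEC24D and of 0.27 and 0.22 for CALR, and that of CALR also without control replicate 4 (adjusted p = 0.054). For HSPA5, HSP90B1 and PDIA4 the pooled differences were 0.08 ± 0.11, 0.17 ± 0.11 and 0.08 ± 0.09, with adjusted p of 0.72, 0.42 and 0.67. XBP1, ATF6, ERN1 and HERPUD1 were at 0.37 ± 0.16, 0.06 ± 0.10, 0.34 ± 0.18 and -0.05 ± 0.16, with adjusted p of 0.2, 0.76, 0.3 and 0.89. In wild-type total RNA HSPA5 had 712 and 698 CPM, HSP90B1 1628 and 1581, XBP1 240.3 and 189, ATF6 83.0 and 91.0, ERN1 25.3 and 28.4 and HERPUD1 76.0 and 76.1 CPM, beside the control values given above.

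Taken line by line, more members passed. In G7 against wild type 10 rose and none fell, against 8.87% of genes that rose, 8.82% that fell and 17.7% in either direction. The 6 largest were CALR at 0.80 ± 0.10, SEC24D at 0.77 ± 0.11, XBP1 at 0.52 ± 0.12, CRELD2 at 0.39 ± 0.12, P4HB at 0.38 ± 0.10 and HYOU1 at 0.38 ± 0.10. XBP1 had 343 and 277 CPM in G7 controls, above both wild-type libraries. P4HB had 2540.3 and 2256 CPM in G7 controls and 1821 and 1831 CPM in wild type, and HYOU1 346 and 322 CPM in G7 controls and 248 and 263 CPM in wild type, again without overlap. In F3 against wild type 6 rose and 3 fell, against 9.51%, 8.54% and 18.1%. SEC24D, ERN1, EDEM1, CALR, SYVN1 and OS9 rose, by 0.64 ± 0.11, 0.54 ± 0.13, 0.51 ± 0.11, 0.46 ± 0.10, 0.40 ± 0.10 and 0.34 ± 0.10. SDF2L1, DNAJB11 and MANF were lower, at -0.78 ± 0.13, -0.38 ± 0.12 and -0.37 ± 0.11. EDEM1 had 230.5 and 199 CPM in F3 controls and 139.9 and 160.2 CPM in wild type, and ERN1 43.2 and 35.2 CPM in F3 controls, above both wild-type libraries. SYVN1 had 80.8 and 77.1 CPM in F3 controls and 59.3 and 60.0 CPM in wild type, and OS9 256 and 269 CPM in F3 controls and 217 and 196 CPM in wild type. DNAJB11 had 52.8 and 66.8 CPM in F3 controls and 74.1 and 80.2 CPM in wild type, and MANF 91.6 and 100.3 CPM in F3 controls and 131 and 115 CPM in wild type. In none of these genes did F3 overlap wild type. The F3 count fell to 3 without control replicate 1, and the G7 count to 4 without control replicate 3 and to 5 without either wild-type library. Both comparisons use the same 2 wild-type libraries, as does the comparison with lines pooled, and the mutant controls are those set against HHT above.

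**Figure D4:**
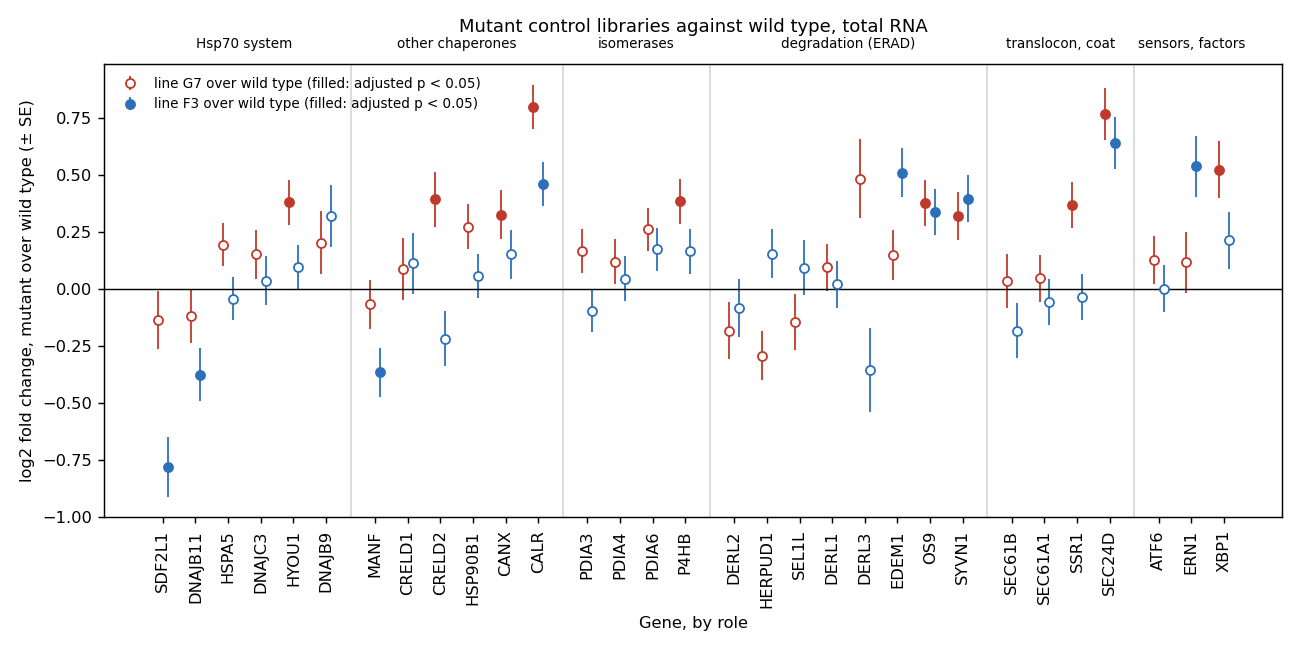
Log2 fold change of mutant controls over wild type ± SE for each tested gene, grouped by role, in line G7 and line F3, with filled points for an adjusted p under 0.05. CALR is at 0.80 in G7 and 0.46 in F3, SEC24D at 0.77 and 0.64, and SDF2L1 in F3, at -0.78, is the lowest point.

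The lines were also set against each other directly. In G7 against F3 controls 5 members were higher and 3 lower, against 5.46% of genes higher, 7.03% lower and 12.5% in either direction. SDF2L1 had 56.2 and 44.7 CPM in G7 controls and 31.3 and 33.1 CPM in F3 controls, with 59.9 and 50.3 CPM in wild type, so that the F3 libraries were the low ones. The difference was 0.65 ± 0.13 (adjusted p = 0.0031), and it was the 1 call of the 8 that was kept in each alternative. CRELD2 had 64.6 and 58.3 CPM in G7 and 38.6 and 41.8 CPM in F3, at 0.61 ± 0.12 (adjusted p = 0.0025). DERL3, SSR1 and CALR were higher in G7 by 0.84 ± 0.18, 0.41 ± 0.10 and 0.34 ± 0.10, with DERL3 at 9.11 and 9.38 CPM in G7 and 4.43 and 5.91 CPM in F3, and SSR1 at 308 and 308 CPM in G7 and 237 and 228 CPM in F3. HERPUD1 had 58.5 and 66.4 CPM in G7 and 87.9 and 82.3 CPM in F3, at -0.45 ± 0.11 (adjusted p = 0.01). ERN1 and EDEM1 were likewise lower in G7, at -0.42 ± 0.13 and -0.36 ± 0.11, with EDEM1 at 165 and 171 CPM in G7. The count was 1 without control replicate 1, 4 without control replicate 2 and 5 without control replicate 3. Megakaryocyte markers moved with the line as well, with a sum of 25.0 and 16.7 CPM in G7 controls and 4.80 and 3.55 CPM in F3 controls, nearly all ITGA2B, and PF4 and PPBP had no count. Their part in the difference was not tested.

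In control libraries against wild type, ATF4 of the PERK arm rose in both lines, by 0.33 ± 0.10 in G7 and 0.54 ± 0.10 in F3. It was the 1 gene of the 9 that rose in G7, and 6 of the 9 rose in F3, among them DDIT3 by 1.12 ± 0.11. EIF2AK3 was not called in either line. DDIT3 had 47.7 and 53.1 CPM in G7 controls, 90.6 and 92.9 CPM in F3 controls and 40.1 and 43.8 CPM in wild type. The F3 libraries were the high ones, and G7 differed from F3 by -0.86 ± 0.11 (adjusted p = 3.6e-05). Among all 103 other genes tested, 13 rose and 3 fell in G7 against wild type, and 11 rose and 5 fell in F3. Over all genes 8.87% rose, 8.82% fell and 17.7% were called in G7. In F3 these shares were 9.51%, 8.54% and 18.1%. Called in either direction, the other genes held no larger a share than all genes, while the share that rose was somewhat larger and the share that fell smaller.

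In RiboLace libraries the mutant was line F3, and 30 members could be tested. EDEM1 rose and PDIA3 fell, against 6.18% of 9805 genes that rose, 5.59% that fell and 11.8% in either direction, and the medians were -0.18 for members and -0.01 for all genes. EDEM1 had 233 and 279 CPM in mutant and 125 and 145 CPM in wild-type RiboLace, at 0.92 ± 0.26 (adjusted p = 0.021). PDIA3 had 149.6 and 121 CPM in mutant and 309 and 191 CPM in wild type, at -0.88 ± 0.28 (adjusted p = 0.037). In neither gene did the groups overlap. Leaving out wild-type replicate 1 gave adjusted p of 0.15 for EDEM1 and 0.40 for PDIA3, leaving out mutant replicate 1 gave 0.080 and 0.13, and leaving out mutant replicate 2 gave 0.28 and 0.38. No member was called in these 3 cases, and 5 were called without wild-type replicate 2. HSPA5 had 819 and 675 CPM in mutant and 1240.0 and 791 CPM in wild type, at -0.44 ± 0.32 (adjusted p = 0.38). HSP90B1, PDIA4 and HERPUD1 were at -0.48 ± 0.34, -0.19 ± 0.30 and -0.05 ± 0.28, and XBP1, ATF6 and ERN1 at 0.10 ± 0.26, -0.01 ± 0.30 and 0.08 ± 0.35, none of them called. HSP90B1 had 1171 and 1121 CPM in mutant and 2019.7 and 1173 CPM in wild-type RiboLace, and PDIA4 584 and 455 CPM in mutant and 698 and 489.8 CPM in wild type. HERPUD1 had 82.1 and 91.0 CPM in mutant and 102 and 74.0 CPM in wild type, and XBP1 232 and 209 CPM in mutant and 227 and 184 CPM in wild type. ATF6 had 68.4 and 84.6 CPM in mutant and 94.85 and 54.1 CPM in wild type, and ERN1 37.6 and 21.2 CPM in mutant and 27.9 and 32.3 CPM in wild type, and the genotypes overlapped in PDIA4, HERPUD1, XBP1, ATF6 and ERN1. The wild-type libraries were farther apart than the mutant ones, with summed member levels of 13667 and 11642 CPM in the mutant pair and of 16896 and 11849 CPM in the wild-type pair, and mutant replicate 2 had 465052 counts.

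RiboLace against total RNA of the same line was high for most of the Hsp70 system and the translocon and coat group and low for 2 genes. The F3 total RNA libraries are the DMSO controls and the RiboLace libraries are untreated by label. Solvent and assay thus cannot be told apart in F3. In mutant F3, 12 members were higher and 2 lower, against 26.5% of 15338 genes higher, 22.7% lower and 49.2% in either direction. In wild type 16 were higher and 2 lower, against 27.3%, 21% and 48.3%. Member medians were 0.23 in F3 and 0.48 in wild type, beside -0.02 and 0.01 for all genes. All 6 genes of the Hsp70 system were called higher in wild type and 5 of them in F3, the exception being HSPA5 at 0.23 ± 0.21 (adjusted p = 0.39). SDF2L1 had 109 and 63.5 CPM in RiboLace and 31.3 and 33.1 CPM in total RNA of F3, at 1.63 ± 0.21 (adjusted p = 1.7e-06). In wild type it had 143 and 124 CPM in RiboLace and 59.9 and 50.3 CPM in total RNA, at 1.44 ± 0.18 (adjusted p = 7.9e-07). It was thus high in RiboLace in each genotype. DNAJC3 was at 1.07 ± 0.18 in F3 and 1.04 ± 0.16 in wild type, and its level was 141 and 150.2 CPM in mutant RiboLace against 76.9 and 71.4 CPM in F3 control. DNAJB11 was at 0.63 ± 0.23 in F3 and 1.08 ± 0.19 in wild type, where RiboLace had 168 and 121 CPM and total RNA 74.1 and 80.2 CPM.

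In the degradation group SYVN1 was at 1.09 ± 0.19 in F3, with 156 and 157 CPM in RiboLace and 80.8 and 77.1 CPM in total RNA, and at 1.27 ± 0.18 in wild type. SEL1L was at 0.74 ± 0.20 in F3 and 1.09 ± 0.19 in wild type, where RiboLace had 206 and 142 CPM and total RNA 81.0 and 104 CPM. Ligase and adaptor were thus both high in RiboLace. SEC61A1 was at 0.90 ± 0.19 in F3, with 594 and 509.7 CPM in RiboLace and 327 and 312 CPM in total RNA, and at 0.82 ± 0.19 in wild type. SEC24D had 133 and 99.4 CPM in RiboLace and 71.9 and 72.5 CPM in total RNA of F3, at 0.85 ± 0.18. In wild type it had 148 and 136 CPM in RiboLace and 42.8 and 49.5 CPM in total RNA, at 1.78 ± 0.17, the largest ratio of the set. All 4 translocon and coat genes were called higher in wild type and 3 in F3.

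PDIA3 was the lowest in F3, and CRELD1 in wild type. PDIA3 had 149.6 and 121 CPM in RiboLace and 576 and 599.8 CPM in total RNA of F3, at -1.99 ± 0.23 (adjusted p = 1.8e-07), and 309 and 191 CPM in RiboLace and 639 and 610.2 CPM in total RNA of wild type, at -1.15 ± 0.21 (adjusted p = 7.1e-05). Its fellow isomerases PDIA4, P4HB and PDIA6 were not called in either genotype, at -0.06 ± 0.20, -0.12 ± 0.20 and -0.13 ± 0.21 in F3 and 0.23 ± 0.20, 0.29 ± 0.20 and 0.48 ± 0.21 in wild type. CRELD1 had 12.8 and 14.8 CPM in RiboLace and 31.4 and 25.3 CPM in total RNA of F3, at -0.97 ± 0.31, and 8.04 and 11.4 CPM in RiboLace and 27.3 and 24.9 CPM in total RNA of wild type, at -1.34 ± 0.28. XBP1, ATF6 and ERN1 were not called in either genotype, at -0.07 ± 0.19, -0.13 ± 0.22 and -0.16 ± 0.25 in F3 and 0.10 ± 0.18, -0.02 ± 0.19 and 0.29 ± 0.22 in wild type. HSP90B1 and HERPUD1, at -0.45 ± 0.22 and 0.11 ± 0.19 in F3 and 0.15 ± 0.21 and 0.39 ± 0.17 in wild type, did not pass either. The call of DERL3 in F3, at 1.19 ± 0.46, rests on 14 and 4 RiboLace reads. HSPA5 in wild type, at 0.68 ± 0.21 (adjusted p = 0.0085), was no longer called without wild-type RiboLace replicate 1 (adjusted p = 0.31), and the F3 count was 6 without mutant RiboLace replicate 1 and 9 without control replicate 1.

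**Figure D5:**
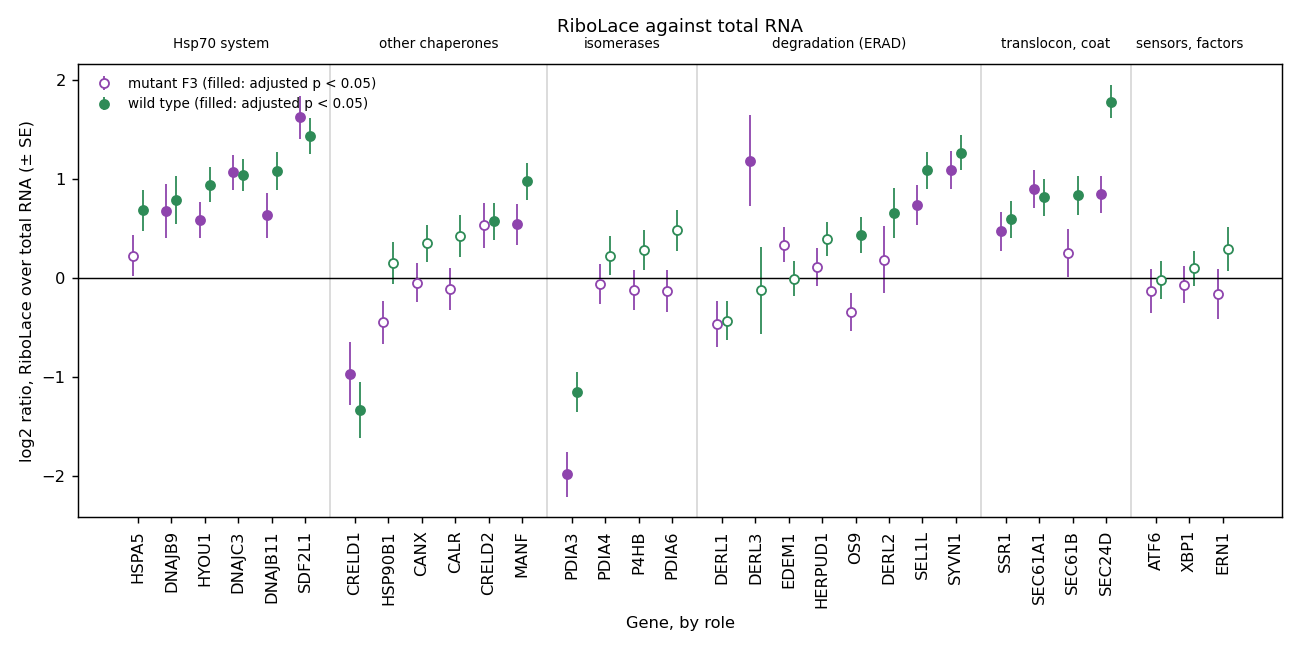
Log2 ratio of RiboLace over total RNA ± SE for each tested gene, grouped by role, in mutant F3 and in wild type, with filled points for an adjusted p under 0.05. SDF2L1, SYVN1 and DNAJC3 are above 1 in both genotypes and PDIA3 and CRELD1 are the lowest points.

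In the other lists the assays differed most in TXNDC5, a disulfide isomerase abundant in plasma cells, with 47.0 and 33.8 CPM in mutant and 53.1 and 56.95 CPM in wild-type RiboLace against 0.580 and 0.668 CPM in F3 control and 1.81 and 0.750 CPM in wild-type total RNA. Exon overlap of TXNDC5 with other genes was not examined. JCHAIN, another plasma cell gene, had 25.7 and 27.5 CPM in mutant and 6.97 and 20.9 CPM in wild-type RiboLace and no count in total RNA. Of the other lymphoid and plasma cell markers, MS4A1, SDC1 and TNFRSF17 had no count in RiboLace. CD79A had 1.61 and 1.90 CPM in wild-type and none in mutant RiboLace. The 7 markers of adherent cells summed to 14.5 and 27.5 CPM in mutant and 6.43 and 12.3 CPM in wild-type RiboLace, against 0.385 to 1.29 CPM in total RNA, and most of it was the collagen gene COL1A1, while EPCAM, KRT19 and COL1A2 had no count. How far RNA of other origin or a different library preparation enters the RiboLace levels of the members was not tested. ATF4 and DDIT3 were low in RiboLace, at -2.59 ± 0.21 and -2.74 ± 0.28 in F3 and -2.49 ± 0.21 and -2.14 ± 0.27 in wild type.

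The ratio of RiboLace to total RNA was not shown to differ between genotypes for any member. None of 31 was called for F3 against wild type in edgeR, where 0.482% of genes were higher, 1.01% lower and 1.49% in either direction, and DESeq2 called 2. At an unadjusted p under 0.05, 5 members passed, but the share of all genes at that threshold was not counted. The smallest adjusted p were those of SEC24D at -0.94 ± 0.25 (adjusted p = 0.055) and OS9 at -0.78 ± 0.26 (adjusted p = 0.13). Member differences had a median of -0.35, beside -0.04 for all genes. F3 total RNA came from DMSO controls and wild-type total RNA had the treatment label None, so solvent and genotype cannot be told apart in this difference. Leaving out wild-type RiboLace replicate 2 gave 9 members called, all lower in F3, and leaving out replicate 1 gave none.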

How the data were processed

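Counts per gene from 14 libraries of OCI-AML2 cells were used, 10 of total RNA and 4 of RiboLace. The authors deposited whole-number read counts per Ensembl gene ID, not normalized; STAR 2.6.0b, DESeq2 and GRCh38 are named in the submitters' processing notes without their roles. Neither the counting tool, nor its strand setting, nor the RiboLace library protocol is given in the sources used here. Of 58037 IDs, 57433 matched GENCODE release 29 and 604 did not.

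Genes were filtered with filterByExpr, scaled by TMM and tested with the edgeR 4.0.16 quasi-likelihood test in R 4.3.3, with Benjamini-Hochberg adjustment over all genes tested. Each SE was derived approximately from the fold change and its F statistic. HHT and control were compared over both lines with line as a term and within each line; mutant and wild type with lines pooled and by line; RiboLace and total RNA in 1 model of both assays, whose interaction gave the difference in ratio. Fits were tested on simulated counts. Alternatives were DESeq2 1.42.0, RLE size factors or library totals for TMM, no filter, protein-coding genes alone, each library left out and a replicate block. HHT and control libraries of the same number share a line, and on that ground the numbers pair the samples. Their deviations correlated at 0.501 to 0.623 from the group means, which include the line, and at 0.236 in F3 and 0.456 in G7 from the means of line and treatment. The running numbers in the sample descriptions do not all match the replicate numbers, so pairs within a line are uncertain. The rule for the members uses no measured value, but members and lists were chosen with earlier results of these data known. Values are given for every library for HSPA5, HSP90B1, PDIA4, XBP1, ATF6, ERN1 and HERPUD1 and for the leading called members, at most 6 per direction and comparison ranked by fold change. From the other lists, at most 2 genes per direction with the smallest adjusted p are named, and ATF4, DDIT3 and EIF2AK3 always. Chi-square per degree of freedom between replicates was 3.14 to 12.5, above sampling noise, so each library counted as 1 replicate.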

Additional observations from a re-analysis of the deposited data

Results flagged for a closer look

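The response to HHT differed between G7 and F3, by the test of the difference itself, for SDF2L1 (-1.26 on the log2 scale), MANF (-0.59), TRIB3 (0.91) and DDIT3 (0.85). Among libraries without HHT, the difference between mutant and wild type was not the same in the 2 lines, G7 minus F3, for DERL3 (0.84), SDF2L1 (0.65), CRELD2 (0.61), SSR1 (0.41), CALR (0.34), EDEM1 (-0.36), ERN1 (-0.42), HERPUD1 (-0.45) and DDIT3 (-0.86). SDF2L1 and DDIT3 stand in both groups, and the same mutant control libraries enter both values.

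Single libraries stood apart in 2 of the 72 groups of 4 examined. For 4 draws from 1 population, chance gives about 1 in 20. Each group held lines F3 and G7 and the groups reused the same libraries, so that rate need not hold here. DERL2 was 32.6 CPM in HHT replicate 3 and 37.1 to 37.8 CPM in the other HHT libraries, with a gap of 0.856 of the range. SEC24D was 84.7 CPM in mutant control replicate 4 and 71.9 to 73.3 CPM in the other controls, with a gap of 0.892 of the range, past the limit for 4 samples.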

How the results depend on the processing

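Of 5005 member values recomputed under the alternatives, 4712 kept their direction and their side of the threshold, 172 lost a call, 119 gained one and 2 turned. SEC61B under HHT was 0.20 with library totals alone (adjusted p = 0.023), and DERL2 in RiboLace against total RNA of wild type ranged, with single libraries left out, from -0.32 without wild-type RiboLace replicate 1 (adjusted p = 0.54) to 1.02 without replicate 2. Library totals alone moved the median of all genes under HHT to 0.21, with 6870 of 11216 calls upward against 5702 of 11239 with TMM, and 4 members higher and 25 lower. In the line difference 6 members were called with no filter. Mutant against wild type in total RNA gave 4 members with no filter and 4 with DESeq2, and in RiboLace 1 with no filter, 1 with DESeq2 and 4 with protein-coding genes alone. The ratio difference gave 1 with no filter, 2 with DESeq2 and 1 with protein-coding genes alone. The cause was not tested. With each library left out in turn, members called ranged from 27 to 29 for HHT, 27 to 28 in G7, 27 to 30 in F3, 1 to 6 for the line difference, 0 to 2 for mutant against wild type, 4 to 9 for G7 and 3 to 9 for F3 against wild type, 1 to 9 for G7 against F3, 0 to 5 for mutant RiboLace, 6 to 17 in F3 and 14 to 23 in wild type for RiboLace against total RNA, and 0 to 9 for the ratio difference. The line difference gave 6 without control replicate 4 and 1 without control replicate 1 or HHT replicate 3. Where a group was left with 1 library, that library was assumed to vary like the others.

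With the replicate block HHT kept its counts of 25 lower and 3 higher members. Elsewhere the numbers did not pair the libraries (correlations -0.0502 to -0.159). In total RNA wild type has replicates 1 and 2 only, so with the block the mutant term compares F3 with wild type and leaves G7 out. It gave 9 members, the count of F3 against wild type without the block, and is not a result for the pooled lines. In RiboLace the block gave 5 members for mutant against wild type, and for the ratio difference 0. For RiboLace against total RNA it gave 12 in F3 and 16 in wild type. Crossing the numbers, an alternative chosen after seeing the data, gave 10 members in total RNA, again for F3 against wild type, and 1 for the ratio difference. For RiboLace against total RNA it gave 13 in F3 and 19 in wild type. RiboLace libraries were shallower than total RNA, with as few as 465052 counts, which limits their precision.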

Other observations

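In RiboLace libraries of mutant against wild-type cells, 98 genes of the other 8 lists could be tested, of which 6 were lower and 1 higher, a smaller share than the 11.8% called over all genes. CREB3L2, an ER-membrane transcription factor, rose by 1.14 on the log2 scale. OST4 of the oligosaccharyltransferase, the signal peptidase subunit SPCS1 and the oxidoreductase TMX1 were lower, at -1.25, -1.21 and -1.07. RNF5, a ubiquitin ligase of the ER membrane, had 3.42 and 6.35 CPM in mutant RiboLace and 42.6 and 49.6 CPM in F3 control total RNA, and 11.3 and 10.4 CPM in wild-type RiboLace and 50.5 and 45.5 CPM in wild-type total RNA.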
